A study of Aspergillus nidulans with 8 samples.

Results

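The dba cluster of Aspergillus nidulans, named for a derivative of benzaldehyde, was followed through its 10 genes AN7894 to AN7903, which lie next to each other on chromosome II. The genes were taken by locus tag, and all 10 were found among the 11127 genes of the array. The run holds the polyketide synthase gene AN7903. Mycelium was grown as stabbed colonies on solid agar in darkness, and whole colonies were scraped off for RNA. Colonies on CYA and on CYAs gave 3 arrays per medium, from days 4, 8 and 10, and colonies on YES gave 2, from days 4 and 10, so that each of the 8 arrays is the only 1 of its medium and day. The medium is taken from the growth medium label, which reads YES for both arrays whose titles read YESs. The media are known here by these abbreviations alone, and neither strain nor genotype is stated by the labels. No label speaks of replicate cultures. Each value below belongs to 1 array, and the spread within a medium is a spread over days.

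A polyketide synthase builds a carbon chain from small acyl units, and a non-reducing one leaves the keto groups in place, so that the chain folds into an aromatic ring. Fungal genes for 1 such product usually lie side by side and are switched on together, often by a regulator encoded in the same run. The dba cluster is known as a silent cluster: in this fungus it was brought out by loss of csnE, a subunit of the COP9 signalosome, which acts in protein degradation. Besides the synthase the cluster is known to encode a regulator and enzymes that modify the polyketide. Only AN7903 is given a role in the sources used here, and the other members are therefore called by locus tag.

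A level is the log2 signal of a gene, as the mean of its 3 probes, relative to the 75th percentile of the same array, so 0 marks that percentile. The 75th percentile ran from a signal of 1483 to 4977, and 10877 to 11114 genes were well above background on an array. The dimmest spots well above background lay at -8.44 to -7.16. All 10 members had a probe well above background on all 8 arrays and entered the tests. The arrays lay on 2 slides, YES with CYA days 4 and 8 on the first and CYAs with CYA day 10 on the second. The 3 genes fixed as markers of growing cells, among them gpdA and the actin gene act1, were well above background on every array. For 180 genes whose CYA day 8 signal was 16-fold or more that of CYAs days 4 and 10, the CYAs day 8 array gave a median of 0.217 of the CYA day 8 signal (quartiles 0.202 and 0.231). The signals of these 2 arrays thus stood in a nearly fixed ratio over those genes, and whether CYAs day 8 holds material of CYA day 8 was not tested, so values that rest on CYAs day 8 carry that limit. Signal from a whole colony cannot tell fewer cells that use a gene from less RNA per cell.

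The cluster stood highest in the youngest colonies on CYA and YES. On CYA day 4 the 10 members had a median level of 0.55 and on YES day 4 of -0.17. On CYAs the median was -2.45 on day 4 and -3.33 on day 8. The other 4 arrays lay lower still, at -4.92 on CYA day 8, -5.10 on CYA day 10, -4.58 on YES day 10 and -4.95 on CYAs day 10. For 9 of 10 members both CYA day 4 and YES day 4 lay above each of the 6 other arrays, an order that 5.35% of all tested genes had. For 8 of 10 members both lay at least 2-fold above all 6, against 0.729% of tested genes. Without the CYAs day 8 array the counts were again 9 and 8. This order was picked out after the values had been seen, so the counts are a description. CYA day 4 and YES day 4 share a slide and all CYAs arrays lie on the other, so slide and medium cannot be told apart between them. The exception to the first count was AN7896, and AN7901 met the first but not the second.

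**Figure D1:**
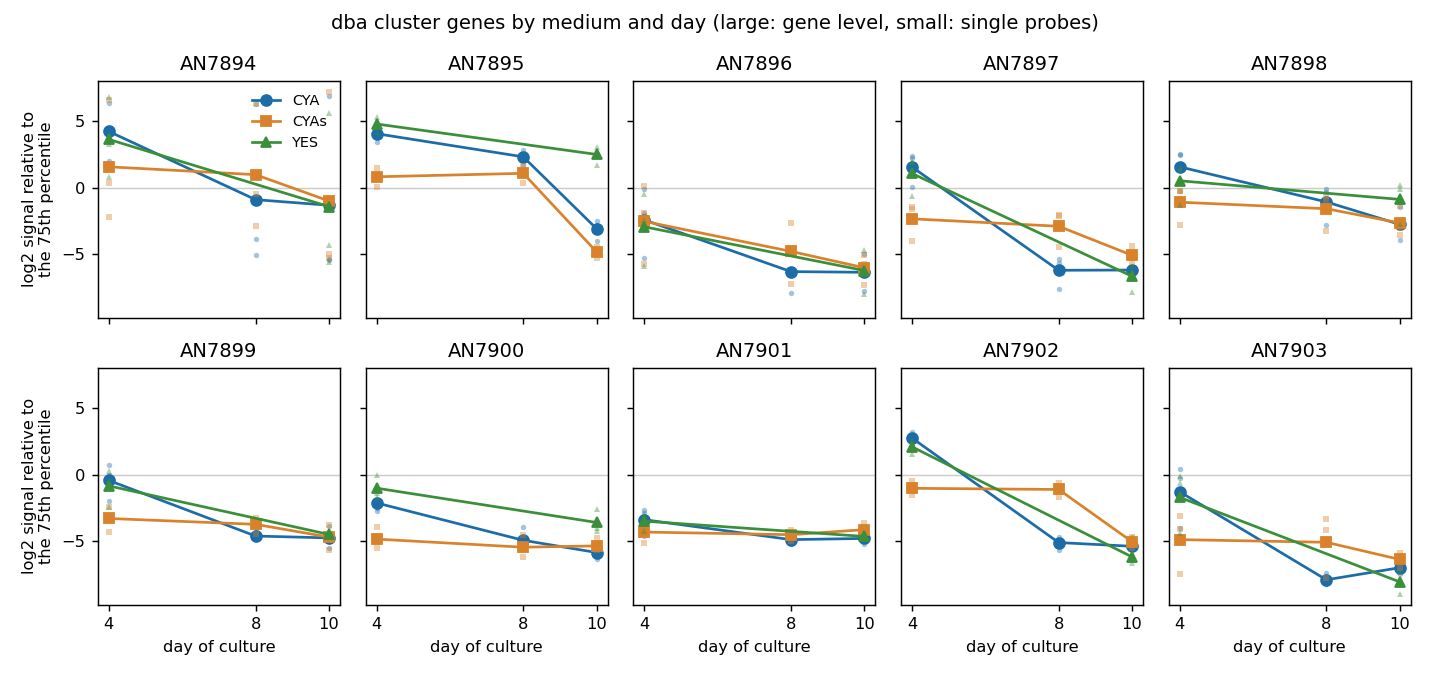
Level of each dba cluster gene (log2 signal relative to the array's 75th percentile) against day of culture, with CYA as circles, CYAs as squares and YES as triangles. Large symbols are gene levels on single arrays, small symbols the 3 probes of a gene, and lines join the days sampled (YES has no day 8). CYA day 4 and YES day 4 stand above the other arrays for 9 of 10 genes, while AN7896 is as high on CYAs day 4.

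AN7903, the polyketide synthase gene, followed this order. Its level was -1.29 on CYA day 4 and -1.71 on YES day 4, -4.89 on CYAs day 4 and -5.09 on CYAs day 8, -6.38 on CYAs day 10, -7.00 on CYA day 10, -7.91 on CYA day 8 and -8.07 on YES day 10. The gene was thus highest on 2 arrays, in between on 2 and near the dim end on 4. On the 2 highest it lay near the median of all genes, which was -1.86 on CYA day 4 and -1.90 on YES day 4. Among the 4 dim arrays, 1 of 3 AN7903 probes exceeded background clearly on CYA day 8 and 2 of 3 on YES day 10. CYA day 4 exceeded CYA day 8 by 6.62 (SD over 3 probes 2.31), and YES day 4 exceeded YES day 10 by 6.36 (SD 1.53). Because some probes on the lower arrays were not well above background, these differences, and any other that rests on AN7903 on CYA day 8 or YES day 10, may understate the ratio. The probes lie at bases 5758 to 7768 of the array's gene model, whereas the reference gives AN7903 a length of 872 bases, so the reference model covers another extent than the one measured here.

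AN7902, the gene beside the synthase, had the widest spread of the 10 over the arrays (SD 3.54, wider than 99.5% of genes). It stood at 2.75 on CYA day 4 and 2.09 on YES day 4, at -1.03 and -1.12 on CYAs days 4 and 8, and at -5.05 on CYAs day 10, -5.11 on CYA day 8, -5.39 on CYA day 10 and -6.19 on YES day 10. The 3 probes moved as 1, with a residual SD of 0.15 after each probe's own brightness was taken off. CYA day 4 was 232-fold brighter than CYA day 8 (log2 7.86, SD over probes 0.00) and YES day 4 was 310-fold brighter than YES day 10 (log2 8.28, SD 0.16).

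AN7897 ran the same course. Its levels were 1.55 on CYA day 4, 1.06 on YES day 4, -2.35 on CYAs day 4, -2.91 on CYAs day 8, -5.09 on CYAs day 10, -6.20 on CYA day 10, -6.22 on CYA day 8 and -6.67 on YES day 10. The 2 high arrays exceeded the best of the other 6 by at least 3.41. AN7899 kept the same order over a narrower range, with -0.44 on CYA day 4, -0.85 on YES day 4, -3.30 and -3.74 on CYAs days 4 and 8, and -4.76 to -4.50 on the last 4 arrays. Of all members AN7899 was most like the median of the other 9 over the 8 arrays (Pearson r = 0.99, Spearman 0.98).

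AN7894 needs to be read by probe. Its mean level was 4.22 on CYA day 4, 3.62 on YES day 4, 1.56 and 0.97 on CYAs days 4 and 8, -0.91 on CYA day 8, -1.01 on CYAs day 10, -1.33 on CYA day 10 and -1.43 on YES day 10. The probe at bases 1 to 60 stayed between 5.61 and 7.20 on all 8 arrays, while the probes at bases 63 to 122 and 248 to 307 followed the cluster. Without the first probe the level was 3.14 on CYA day 4, 2.03 on YES day 4, -0.94 and -1.68 on CYAs days 4 and 8, and -5.43 to -4.50 on the other 4 arrays. What the first probe measures was not tested.

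AN7895 stayed closer to its day 4 level than most members on YES day 10 and CYA day 8. It stood at 4.78 on YES day 4 and 4.05 on CYA day 4. It was still at 2.49 on YES day 10 and 2.31 on CYA day 8, and at 1.07 on CYAs day 8 and 0.81 on CYAs day 4. Only on CYA day 10 (-3.10) and CYAs day 10 (-4.84) was it low. On CYA it thus stood 3.35-fold lower on day 8 than on day 4 and a further 42.5-fold lower on day 10, while AN7902 was already 232-fold lower on day 8. Between days 8 and 10 on CYA, AN7895 and AN7898 were the 2 members at least 2-fold lower on the later day, as were 15.1% of tested genes. The 3 probes of AN7895 had a residual SD of 0.13, so the late signal is shared by all 3. All 4 arrays of slide 1 (YES and CYA days 4 and 8) lay above all 4 of slide 2 for this gene, the step from CYA day 8 to CYA day 10 crosses slides, and the part of the slide in it was not tested.

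AN7898 was also nearer its day 4 level than most members on YES day 10 and CYA day 8, and AN7900 was so on YES day 10. On CYA day 8 AN7900 was 2.81 lower than on CYA day 4. AN7898 stood at 1.56 on CYA day 4, 0.51 on YES day 4, -0.89 on YES day 10, -1.08 on CYA day 8, -1.10 and -1.59 on CYAs days 4 and 8, -2.66 on CYAs day 10 and -2.77 on CYA day 10. The 4 arrays of slide 1 lay above the 4 of slide 2 for AN7898 too. Its fitted difference of day 10 from day 4 was -2.43 without and -1.77 with slide as a block. Only CYA lay on both slides, so the block takes up CYA day 10, and leaving out that array gave the same -1.77. AN7900 was highest on YES day 4 (-1.02), then at -2.13 on CYA day 4 and -3.60 on YES day 10, and between -5.86 and -4.85 on the other 5 arrays. On day 4 AN7900 and AN7895 were the 2 members brighter on YES than on CYA, by 1.11 (SD over probes 0.03) and 0.73 (SD 0.04), whereas the other 8 lay 0.12 to 1.05 lower on YES. AN7900 alone was at least 2-fold higher there and AN7898 alone at least 2-fold lower, where 9.07% and 8.73% of tested genes were.

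AN7896 differed from the others on CYAs. Its level on day 4 was nearly the same in all 3 media, at -2.43 on CYA, -2.54 on CYAs and -2.95 on YES. It was -4.80 on CYAs day 8, -6.03 on CYAs day 10, -6.24 on YES day 10, -6.32 on CYA day 8 and -6.37 on CYA day 10. CYAs day 4 thus differed from CYA day 4 by -0.11 (SD over probes 0.34) for AN7896, while the other 9 members lay 0.94 to 3.89 lower on CYAs. From day 4 to day 8 on CYAs the order turned: AN7896 was 2.26 lower on day 8 (SD 0.67), and the other 9 differed by 0.61 or less. At least 2-fold lower on CYAs day 8 than on day 4 were AN7896 alone of the 10 members and 2.72% of tested genes. With 1 array at each point, the difference between AN7896 and the other members was not tested. On CYA days 8 and 10, 2 of 3 AN7896 probes were well above background. Differences of AN7896 that rest on those arrays may therefore understate the ratio.

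AN7901 moved little. Its 8 levels ran from -4.89 on CYA day 8 to -3.39 on CYA day 4, an SD of 0.57 over arrays that is close to the median of 0.58 over all genes. The other 9 members each had a wider spread than at least 90.5% of genes. The probes of AN7901 disagreed: those at bases 311 to 370 and 492 to 551 were highest on the 2 bright arrays of the cluster, and that at bases 1205 to 1264 was highest on CYAs day 10 (-3.62). From CYA day 4 to CYA day 8 the probe at bases 311 to 370 went from -2.67 to -5.09. Over the same step the probe at bases 492 to 551 went from -2.86 to -5.20, and that at bases 1205 to 1264 from -4.63 to -4.37.

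Ageing of the colonies was compared within each medium. On CYA all 10 members were at least 2-fold lower on day 8 than on day 4 (17.4% of tested genes were), with a median difference of 4.04, and all 10 were lower on day 10 than on day 4 (12.6% of genes), with a median of 4.94. The probes of AN7901 disagreed there (1.50, SD over probes 1.52, to day 8 and 1.42, SD 1.42, to day 10), and 1 probe was brighter on both later days. Those of AN7894 disagreed too (5.13, SD 4.39, and 5.56, SD 5.36). On YES all 10 were at least 2-fold lower on day 10 than on day 4 (16.6% of genes), with a median of 3.47. On CYAs 8 of 10 were so on day 10 (6.15% of genes), with a median of 2.06, and the median step was 0.47 between days 4 and 8 and 1.26 between days 8 and 10, when 7 of 10 were at least 2-fold lower (6.30% of genes). AN7900 and AN7901 were the 2 without a 2-fold step on CYAs from day 4 to day 10. Of the 8, AN7894 (2.57, SD 3.11), AN7899 (1.40, SD 1.90) and AN7903 (1.49, SD 2.61) had probes that disagreed by more than the difference, and 1 probe of each was brighter on day 10. The CYAs arrays share a slide, as do both YES arrays and CYA days 4 and 8, whereas the CYA day 10 array lies on the other slide than the earlier CYA arrays. In all 3 media 8 of 10 members were at least 2-fold lower on day 10 than on day 4, against 2.60% of tested genes.

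A fit with additive effects of medium and day over all 8 arrays set these differences against the spread that remains. For day 10 against day 4 all 10 members were lower, with a median of -3.98 (SD over members 1.83), where the median over all genes was 0.13. AN7902 differed by -6.81 (SE 1.47, limma adjusted p = 0.12), AN7903 by -4.52 (SE 1.31, limma adjusted p = 0.16) and AN7896 by -3.57 (SE 0.38, limma adjusted p = 0.11). Limma called 0 of 10 members at an adjusted p under 0.05 and 0% of all tested genes, and 9 of 10 members were lower at an unadjusted p under 0.05, against 8.79% of genes. For day 8 against day 4 it also called 0 members (0.00900% of genes), with 4 lower and 0 higher at an unadjusted p under 0.05 (5.42% and 10.1% of genes) and a median of -2.72, which was -1.70 without CYA day 4 and -1.49 without CYA day 8. AN7896 differed by -3.00 there (SE 0.44, limma adjusted p = 0.20).

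**Figure D2:**
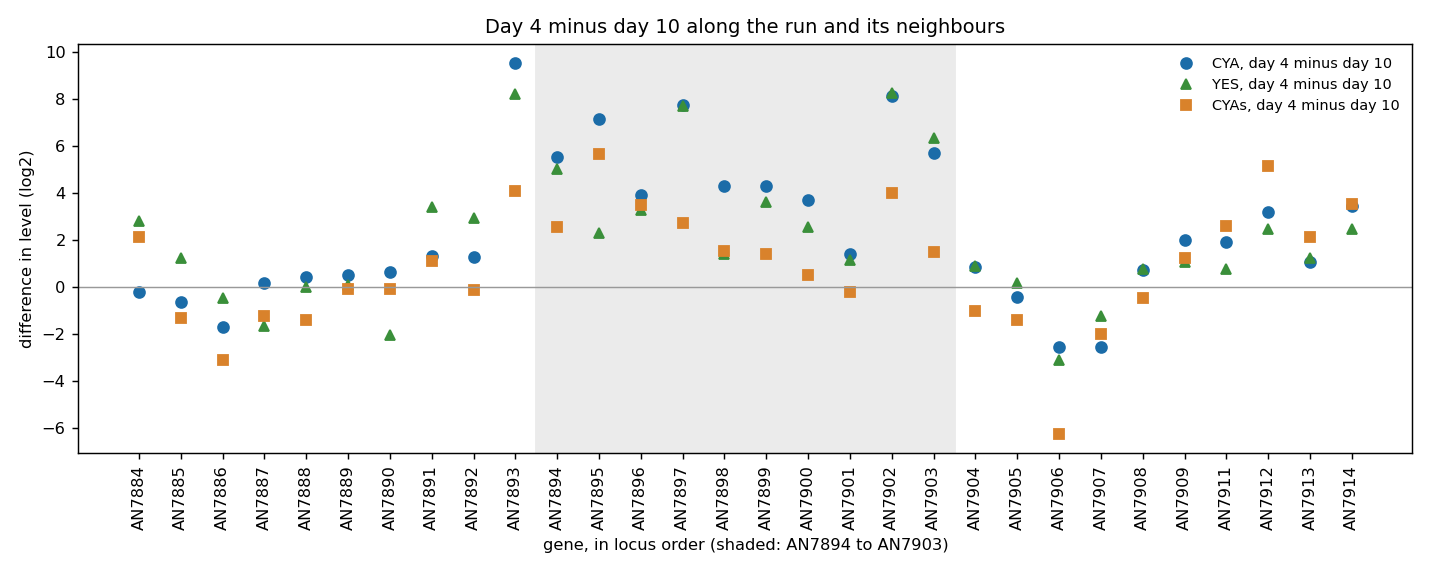
Difference in level (log2) between day 4 and day 10 for the genes AN7884 to AN7914 in locus order, with CYA as circles, YES as triangles and CYAs as squares. Each point is a difference between 2 single arrays, and the 10 members are shaded. AN7893 and 8 of the 10 members lie at least 1 above 0 in all 3 media, and so do AN7891 among the neighbours and AN7909, AN7912, AN7913 and AN7914 of the orsellinic acid genes, while AN7904 lies on both sides of 0 and AN7906 below it.

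The edges of the run were compared with the genes on either side. AN7893, the next gene before AN7894, followed the members: it stood at 3.41 on CYA day 4, 2.53 on YES day 4, -1.44 and -1.56 on CYAs days 4 and 8, -4.99 on CYA day 8, -5.54 on CYAs day 10, -5.70 on YES day 10 and -6.15 on CYA day 10. Both high arrays exceeded the other 6 by at least 3.97, more than for any of the 10 members. The 9 genes AN7884 to AN7892 and the 5 genes AN7904 to AN7908 did not show that order in any case. AN7904, which follows the synthase gene, stayed between -1.07 and 0.72. Of these 14 neighbours AN7891 came closest to the median profile of the members, with Pearson r = 0.71 and Spearman 0.69 over 8 arrays.

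Likeness was measured over 8 arrays that share 3 media, 3 days and 2 slides, and is given as a description. Over the 45 pairs of members the median Pearson r was 0.86 (0.42 to 0.99) and the median Spearman 0.79. Without CYA day 4 and YES day 4 the median r of the pairs was 0.41, so much of the likeness rests on those 2 arrays. In the 6 arrays left, AN7894, AN7896, AN7897, AN7899 and AN7902 still followed the median of the other 9 (r = 0.83 to 0.99) and AN7903 did so at 0.73, whereas AN7900 was at -0.05, AN7895 at 0.24, AN7898 at 0.31 and AN7901 at 0.38.

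Among 2392 genes outside the run with an SD of at least 1 over the arrays, the 5 most like the median profile of the members were AN7893 (Pearson r = 0.988, Spearman 0.90), AN11584 (0.961, 0.95), AN7998 (0.956, 0.79), AN10044 (0.947, 0.98) and AN2505 (0.943, 0.83). AN2505 is fbx15 in the reference, a gene for an F-box protein, the part of a ubiquitin ligase that picks its substrates. AN11584 spanned the widest range of the 5, from 3.45 on CYA day 4 and 2.90 on YES day 4 to -7.40 on CYA day 10. Most like AN7903 were AN7878 (Pearson r = 0.971, Spearman 0.98), AN7893 (0.968, 0.88), AN3490 (0.962, 0.95), AN7998 (0.956, 0.93) and AN0146 (0.956, 0.98).

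CYAs was compared with CYA on the same day, and the sign of the difference turned between days. On day 4, 8 of 10 members were at least 2-fold lower on CYAs (10.6% of tested genes were), with a median of -2.79. AN7897 was 14.9-fold lower (SD over probes 0.13 on the log2 scale), AN7902 was 13.7-fold lower (SD 0.10) and AN7903 was 12.2-fold lower (SD 0.21). On day 8, 5 of 10 were at least 2-fold higher on CYAs (13.0% of genes) and 1 lower (14.2%), with a median of 1.20. AN7902 was then 15.9-fold higher on CYAs and AN7897 9.90-fold, and the member that was lower was AN7895 (-1.24). On days 4 and 8 the CYAs and CYA arrays lie on different slides, so slide and medium cannot be told apart in those values. On day 10, where both arrays share a slide, the median was 0.34, with AN7897 higher by 1.11 (14.1% of genes were at least 2-fold higher) and AN7895 lower by 1.74 (5.99% lower).

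**Figure D3:**
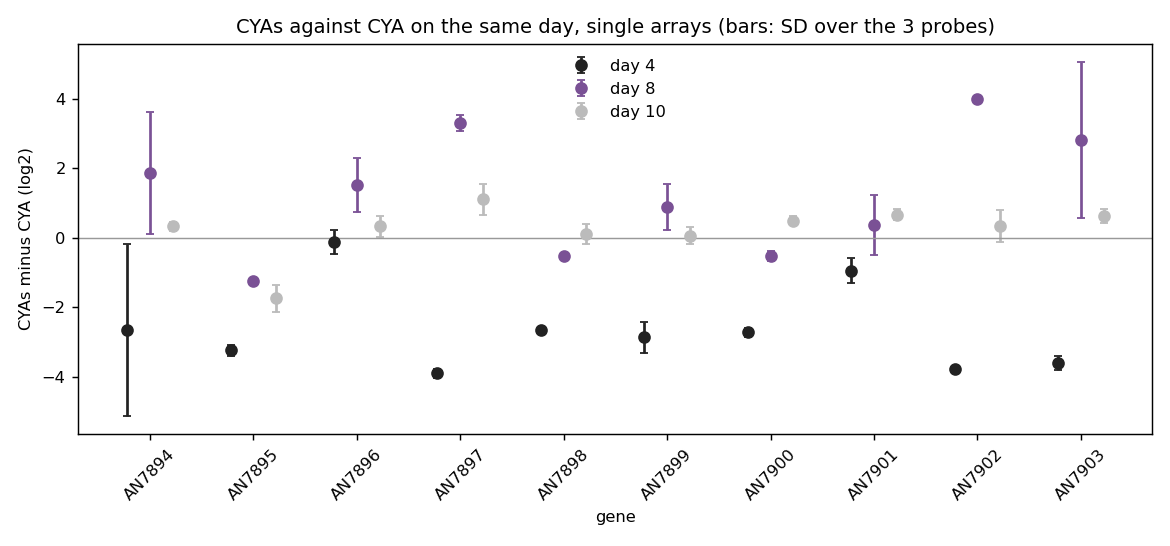
Difference between CYAs and CYA on the same day (log2, single arrays) for each dba cluster gene, with days 4, 8 and 10 in black, purple and grey and bars for the SD over the 3 probes of a gene. On day 4 all genes but AN7896 lie well below 0 or near -1 (AN7901), and on day 8 AN7897, AN7902 and AN7903 lie near 3 to 4. The differences of days 4 and 8 are between arrays on different slides.

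The additive fit joins these opposite days into 1 value. For CYAs against CYA the median over members was -0.10 (SD 0.78, 6 lower and 4 higher), and AN7903 differed by -0.05 (SE 1.31, limma adjusted p = 1). Limma called 0 members and 0% of tested genes, and 0 members had an unadjusted p under 0.05, against 3.56% of genes lower and 5.24% higher. The median was -1.33 without either day 8 array. The signal of AN7895 on CYAs day 8 was 0.423 of that on CYA day 8. AN7897, AN7902 and AN7903 were brighter on CYAs day 8 than on CYA day 8.

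YES was compared with both other media on days 4 and 10. Against CYA the members differed little on day 4, by a median of -0.46, and on day 10 by 0.14. On day 10 AN7895 was 48.4-fold higher on YES than on CYA, AN7900 was 4.81-fold higher and AN7898 was 3.68-fold higher. These were the 3 members at least 2-fold higher (16.1% of genes were), and AN7903 at -1.07 was the 1 at least 2-fold lower (19.5% of genes). YES day 10 and CYA day 10 lie on different slides, so slide and medium cannot be told apart in these 3 values. In the fit AN7895 differed by 3.37 (SE 1.11, limma adjusted p = 0.63). Its difference became 2.52 once the slide was a term of that fit (limma adjusted p = 1). Leaving out CYA day 10 gave the same 2.52, because that array alone sets the slide term. Limma called 0 members (0% of genes), and AN7895 alone was higher and none lower at an unadjusted p under 0.05, against 3.23% and 4.23% of genes. Without YES day 10 the difference of AN7895 was 1.32, and without YES day 4 it was 5.43.

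Against CYAs, 8 of 10 members were at least 2-fold higher on YES on day 4 (12.1% of genes), with a median of 2.78. AN7895 was 15.8-fold higher, AN7900 was 14.2-fold higher and AN7896 was at -0.41. On day 10 AN7895, AN7898 and AN7900 were higher by 7.34, 1.77 and 1.76 (13.9% of genes were at least 2-fold higher), and AN7897, AN7902 and AN7903 were lower by 1.58, 1.13 and 1.69 (26.6% of genes). In the fit AN7895 differed by 5.45 (SE 1.11, limma adjusted p = 0.27) and AN7900 by 2.70 (SE 0.74, limma adjusted p = 0.30), both at an unadjusted p under 0.05 (6.62% of genes higher and 7.71% lower). Limma called 0 members and 0.00900% of genes. Without YES day 4, AN7895 was called at 7.50 (limma adjusted p = 0.045), in a fit that called 158 genes, 1.42% of those tested, and whose lone YES array is assumed to vary like the other media. Its adjusted p ran from 0.045 to 1 over all alternatives. The difference was 3.39 without YES day 10 and 3.23 with slide as a block, and that of AN7900 was 1.06 with the block. No YES array shared a slide with a CYAs array. Only CYA lay on both slides, so the block is set by CYA day 10 alone. In the same-day values slide and medium cannot be told apart.

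YES day 10 and CYA day 8 were close to each other over all genes, at 97.9 and 100.1 on the first principal component (49.7% of the variance), with the other arrays at 30.5 or lower. The 10 members differed by a median of 0.10, from 1.35 higher on YES day 10 (AN7900, with 5.90% of genes at least 2-fold higher) to 1.08 lower (AN7902, with 7.67% lower). AN7895 differed by 0.19 between these 2 arrays.

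The other non-reducing polyketide synthase genes, listed from general knowledge, were set beside AN7903. Of 13 such genes, 2 had CYA day 4 and YES day 4 both at least 2-fold above the 6 other arrays (0.729% of all tested genes) and 5 had both above them by any size (5.35%). AN7071 stood at -0.29 on YES day 4 and -1.51 on CYA day 4, and at -7.27 to -3.15 elsewhere. AN0150, tpcC in the reference, stood at 5.13 and 3.99 on those arrays and at 0.97 to 2.93 elsewhere. AN6000, nscA in the reference, was low on those 2 arrays (-5.21 and -5.20) and also on CYAs days 4 and 10 (-6.22 and -5.21). Elsewhere it stood at 3.52 to 5.51, highest on CYA day 8. For day 10 against day 4, limma called 0 of the 13, with 6 lower and 1 higher at an unadjusted p under 0.05 (8.79% and 13.5% of genes).

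**Figure D4:**
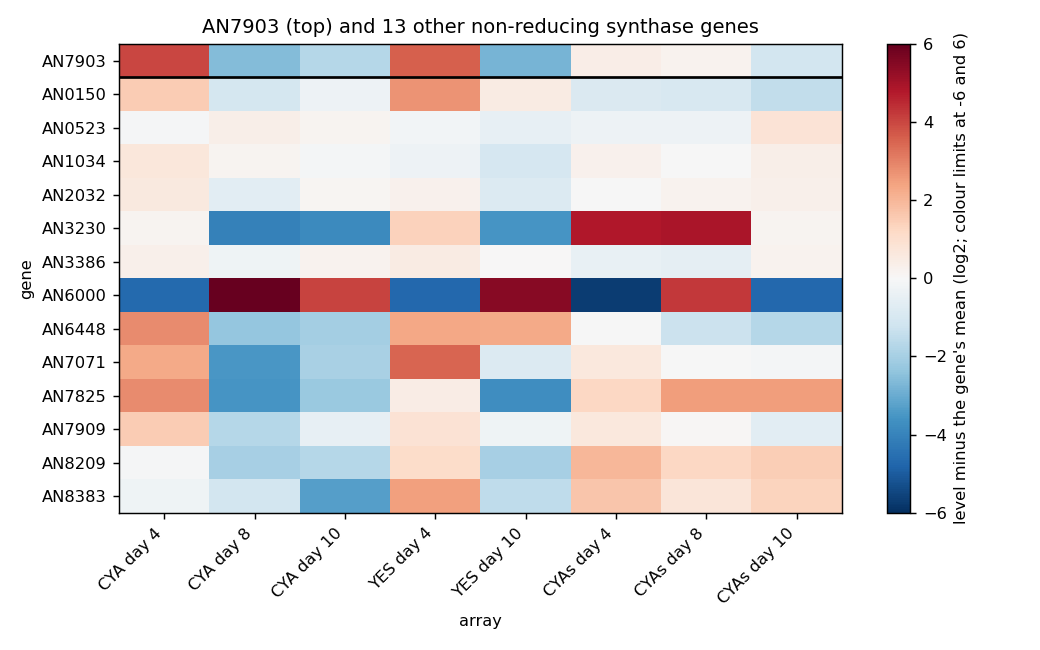
Level of AN7903 (top row) and of 13 other non-reducing polyketide synthase genes on the 8 arrays, each as the log2 difference from the gene's own mean, in red above and blue below it. AN7903, AN7071 and AN0150 are reddest on CYA day 4 and YES day 4, while AN6000 is blue there and on CYAs days 4 and 10.

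The orsellinic acid cluster lies a few genes further along, in AN7909 and AN7911 to AN7914. All 5 genes were lower on day 10 than on day 4 in the fit, each at an unadjusted p under 0.05 (8.79% of tested genes), and limma called 0 of them. Of the 5, AN7909 and AN7911 had both CYA day 4 and YES day 4 above the other arrays (5.35% of genes), by 0.23 and 0.52, and none by 2-fold. Lower levels of these 2 on CYAs day 4 than on CYA day 4 and YES day 4 follow from that order. AN7911 was at 1.42 on CYAs day 4 against 3.19 and 2.05, and AN7909 at -4.40 against -3.50 and -4.17. AN7914 stood at 6.27 on CYAs day 4, 6.06 on CYA day 4 and 5.95 on YES day 4.

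Of 9 genes listed as general regulators of such clusters, none had CYA day 4 and YES day 4 above the other 6 arrays, and limma called 0 of them in any comparison. The csnE gene (AN2129) stayed between -1.01 and -0.01 and csnD (AN1539), another COP9 signalosome gene, between -1.77 and -1.31. The gene laeA (AN0807), for a methyltransferase-like regulator of many clusters, lay between -1.78 and -0.74. The genes vosA (AN1959) and velB (AN0363), of the velvet family of regulators, had both arrays below the 6 others, as had 4.57% of tested genes. The level of vosA was -5.70 on CYA day 4 and -5.42 on YES day 4 against -5.16 to -3.91 elsewhere, and that of velB was -2.35 and -2.23 against -2.02 to -1.04. Their Pearson r to the median profile of the members over 8 arrays was -0.87 and -0.75. The partner of laeA in the velvet complex, veA (AN1052), was lowest on CYA day 8 (-1.85) and highest on CYAs day 10 (0.83).

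Markers of cell types moved across the same arrays. The summed signal of the 3 growing cell markers, relative to the 75th percentile, was 15.6 to 17.6 on the day 4 arrays and 6.20 to 8.72 on the day 10 arrays. Of these, gpdA and act1 were lower on day 10 than on day 4 in all 3 media. AN1182 was so on CYA and CYAs, but stood at 0.80 and 0.78 on YES days 4 and 10 and was highest on CYA day 8 (1.05). The 7 conidium and conidiophore markers, all well above background throughout, summed to 26.1 to 43.4 on the CYAs arrays and to 42.2 and 1.13 on YES days 4 and 10. On CYA days 4, 8 and 10 they summed to 9.66, 1.23 and 1.15. There rodA, dewA, AN8209 and brlA were lower on days 8 and 10 than on day 4. By contrast, abaA rose from -5.34 on day 4 to -4.48 on day 10. The level of yA was highest on day 8 (-2.69), and wetA stood at -3.86 and -3.92 on days 4 and 10. The 4 markers of sexual structures, that is of Hülle cells and fruiting bodies, summed to 11.9, 97.2 and 114 on CYA days 4, 8 and 10. On CYAs they summed to 6.43, 32.9 and 18.4 and on YES to 6.22 and 6.57. On CYA the level of AN7349 was -1.25, 6.52 and 6.69, while AN7388, nsdD and steA were lower on day 8 than on day 4. On YES AN7349 went from -5.41 to 0.52 and AN7388 was also higher on day 10, while nsdD and steA were lower. The part of these shifts in the dba levels was not tested.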

How the data were processed

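The intensity of each spot was extracted with Agilent Feature Extraction 10.5.1.1 from 1-colour Cy3 arrays, per the file headers. The authors also deposited a table of log2 values with 1 value per gene, used here as an alternative. Limma and RMA are named, with no version or role, per the submitters' processing notes. The table's column medians were 9.66 to 9.69 and it correlated at 0.980 to 0.983 with background-corrected, quantile-normalized signals. It was read as uncentred log2 signal of single arrays, and how its background was corrected is not given in the sources at hand.

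Of 32793 gene probes of 60 bases, 38 flagged as outliers on any array were left out on all arrays. Processed signals were put on a log2 scale, the 75th percentile of each array was subtracted, and values were averaged over a gene's probes. The 11109 genes with a probe well above background on at least 2 arrays were tested with limma 3.58.1 in R 4.3.3 (medium and day as additive factors, 3 residual and 2.25 prior degrees of freedom, Benjamini-Hochberg adjustment over all tested genes). An interaction of medium and day could not be tested. The fit was tested on simulated data. The number of arrays limits the precision.

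The members and lists were chosen with earlier results of these data known. Named genes were the 10 members, their neighbours, the lists of synthase, orsellinic acid and regulator genes, and the 5 genes most like AN7903 or the median profile. All members matched the reference, assembly ASM1142v1, used for names and gene order only. Of the signalosome genes csnD and csnE were found by symbol. The normexp alternative used the median spot signal (offset 50, with statmod 1.5.0 for the slide block). A count of promoter motifs was not made because no sequence was used here. Depth does not apply to arrays.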

Additional observations from a re-analysis of the deposited data

Results flagged for a closer look

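For several members the difference between 2 media was at least 2-fold in opposite directions on 2 days. Each value rests on single arrays, and the difference between the days was not tested. The arrays of CYAs and CYA on days 4 and 8, of YES and CYAs, and of YES and CYA on day 10 lie on different slides. CYAs minus CYA was negative on day 4 and positive on day 8 for AN7894 (-2.66 and 1.87, a gap of -4.54), AN7897 (-3.89 and 3.31, a gap of -7.20), AN7902 (-3.78 and 3.99, a gap of -7.77) and AN7903 (-3.60 and 2.82, a gap of -6.43, with 1 of 3 AN7903 probes well above background on CYA day 8). For AN7897 it was also positive on day 10 (1.11, a gap of -5.00 to day 4). YES minus CYAs was positive on day 4 and negative on day 10 for AN7897 (3.41 and -1.58, a gap of 4.99), AN7902 (3.12 and -1.13, a gap of 4.25) and AN7903 (3.18 and -1.69, a gap of 4.87, with 2 of 3 probes well above background on YES day 10). YES minus CYA was negative on day 4 and positive on day 10 for AN7898 (-1.05 and 1.88, a gap of -2.93).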

How the results depend on the processing

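No paired analysis was possible because the labels give no replicate number. The media were matched by day in the additive fit. The order of CYA day 4 and YES day 4 above the other arrays held for 9 members, and by 2-fold for 8, under all 5 other ways of making the levels and without CYAs day 8, which were chosen after seeing the data. Limma called 0 members in all 5 comparisons under every alternative, except 1 (AN7895) for YES against CYAs without YES day 4, at 7.50, where 1.42% of tested genes were called against 0.00900% with all arrays and YES keeps 1 array, assumed to vary like the other media. For day 10 against day 4 the median of the members was -2.50 with normexp and quantile normalization, where low signals are raised by the offset of 50. Leaving out 1 array at a time gave medians of -1.33 to 0.65 for CYAs against CYA, -0.14 to 1.45 for YES against CYA, -0.66 to 1.24 for YES against CYAs, -3.65 to -1.49 for day 8 against day 4 and -4.54 to -3.35 for day 10 against day 4. The medium differences of AN7903 lay near 0 and changed sign. YES against CYA (-0.03) became 0.18 with normexp and quantile normalization, 0.31 in the authors' table, 0.24 with the median of the probes, 0.09 with slide as a block and 0.06 with slide as a random block. CYAs against CYA (-0.05) became 0.27 with the median of the probes, and YES against CYAs (0.02) became -0.03 with it and -0.06 with arrays centred on their median. Without 1 array these 3 ran from -1.40 to 1.35, -1.49 to 1.74 and -2.21 to 1.40. AN7895 in YES against CYAs ran from 3.39 to 7.50. Where no other value bears on it, the cause of these shifts was not tested.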

Other observations

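Between the dba run and the orsellinic acid genes, AN7906 and AN7907 were lower on day 4 than on day 10 in all 3 media. AN7906 stood at -7.02 on CYAs day 4, -7.49 on YES day 4 and -6.45 on CYA day 4, and at -1.57 and -0.77 on CYAs days 8 and 10. On CYA it was at -4.29 and -3.91 on days 8 and 10, and on YES day 10 at -4.39. AN7907 was lowest on YES day 4 (-4.68) and highest on CYA day 10 (0.21). Their Pearson r to the median profile of the dba genes over 8 arrays was -0.66 and -0.64.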
